A study of Homo sapiens with 16 samples.

Results

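SW480 is an established human line from a colon adenocarcinoma, and the comparison described here is between its unmodified form and the same line carrying a shRNA that targets no human gene. Neither line holds an Ajuba construct. Parental cells (n = 2) were untreated. ShScrambled cells (n = 2) had been transduced with lentivirus made from the puromycin-resistance plasmid pLKO.1-puro, which encodes a hairpin with no mammalian target, and were then kept under puromycin as a stable population. These are 4 of the 16 samples of the series and 2 of its 6 lines, chosen by the names of their columns in the deposited count table. The other 4 lines are shAjuba1 and shAjuba2, which carry hairpins against Ajuba, Ajuba OE, which overexpresses it, and Control, which carries the overexpression construct with its insert removed (n = 3 each). All samples are labelled as the same range of passages, and no source used here says when either line was split from the other. The study calls samples of 1 line technical replicates, so the p-values below measure the spread between such samples only. Viral transduction, integration, puromycin, the hairpin itself and separate growth of the lines are shared by both shScrambled samples and by neither Parental sample, and they cannot be told apart in this comparison.

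A short hairpin RNA is cut by Dicer and loaded on an Argonaute protein, where it guides the silencing of matching messengers. A hairpin without a target is used so that the effects of the virus, of selection and of the loaded silencing machinery are present in the reference line as well. A lentivirus inserts at many sites, and a population grown out after selection descends from the cells that survived, so that a transduced reference line and its parent can differ in more than the hairpin.

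The 4 libraries held 36456400 to 53584129 counted pairs each. Levels are given as CPM, the count of a gene scaled to a common library size with TMM factors. Pearson's correlation of log2 CPM (prior count 2) was 0.994 between the Parental samples and 0.995 between the shScrambled samples, and 0.985 to 0.987 between samples of different lines. The cells kept an epithelial and colonic profile in both lines. The summed level of 5 epithelial markers was 6060 and 6620 CPM in Parental and 4090 and 3970 CPM in shScrambled, and that of 6 colon markers was 86.2 to 88.8 CPM in all 4 samples. CDX1, a colon marker, was listed at 0 CPM in 3 of the 4 samples. Markers of leukocytes (6 genes) summed to 7.62 to 8.49 CPM, and those of fibroblasts (6 genes) to 19.1 to 22.6 CPM with DCN at 0. Endothelial markers (4 genes) summed to 2.32 and 2.38 CPM in Parental and to 4.99 and 5.37 CPM in shScrambled, nearly all of it VWF, while CDH5 and KDR were at or near 0.

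The first question was the level of Ajuba itself. AJUBA (ENSG00000129474, chromosome 14) stood at 89.2 and 92.6 CPM in Parental and at 82.4 and 81.0 CPM in shScrambled. The samples of the lines did not overlap, which held for 13907 of the 21289 genes tested. The difference did not pass the test (log2 fold change -0.13 ± 0.075 SE, adjusted p = 0.186). Adjusted p-values here and below come from the edgeR quasi-likelihood fit (Benjamini-Hochberg, 21289 genes), fold changes are shScrambled against Parental, and a gene is called differentially expressed (DEG) at an adjusted p under 0.05. The Ajuba relatives LIMD1 (log2 fold change 0.04 ± 0.077, adjusted p = 0.739, edgeR) and WTIP (-0.07 ± 0.096, adjusted p = 0.632, edgeR) were not called either. The fold change of AJUBA lay between -0.17 and -0.11 on the log2 scale under every alternative and was called in none, which does not show that the levels were equal. For scale, AJUBA averaged 49.7 CPM in the shAjuba1 line, 59.9 CPM in the shAjuba2 line and 553 CPM on overexpression. Among 7 tested members of the wider Ajuba and zyxin family of LIM proteins, TRIP6 and LPP were higher in shScrambled by 0.30 and 0.33 on the log2 scale, the other 5 were not called, and none was called in a fit of all 16 samples.

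The lines differed in many genes by small amounts and in a limited set by large ones. Of 21289 genes tested, 6526 (30.7%) were called, 3195 (15%) higher and 3331 (15.6%) lower in shScrambled. The median absolute log2 fold change of these DEG was 0.47, and 53.3% of them changed by less than 0.5. At least a 2-fold change was seen in 704 genes that were higher (3.31%) and 371 that were lower (1.74%). In a single fit of all 16 samples, where 1 estimate of the spread covers the 6 lines, 1696 of 23597 genes were called, 1682 of them among the 6526. That fit takes in the spread of the other lines, which was wider in most pairs of samples. The median chi-square of a pair's counts, relative to counting noise alone, was 3.08 for Parental and 3.28 for shScrambled. It was 1.87 to 14.3 for pairs within the other lines. The part of this wider spread in the calls lost there was not tested. Leaving out Parental 2 gave 3923 calls and leaving out shScrambled 2 gave 3010. Beside each gene list below, the number of members called in the 16-sample fit is therefore given as well. The share to read a list's main count against is 30.7%, and for its 16-sample count it is 1696 of 23597 genes. Fits without 1 sample called fewer genes than the main fit, so 30.7% does not apply to their counts either. Of 39 lists, the count of members called dropped by more than 1.5 times in 20 without shScrambled 2, in 15 without Parental 2, in 6 without Parental 1 and in 5 without shScrambled 1. The plot of fold change against level shows a cloud of called genes close to 0 and, outside it, single genes at every level.

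**Figure D1:**
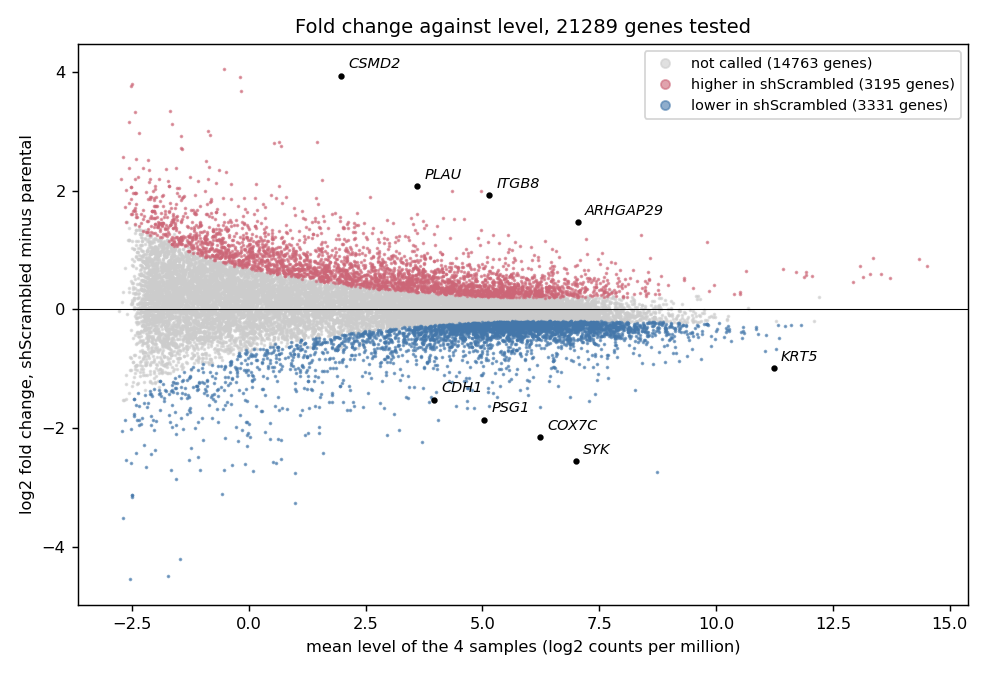
Each point is 1 of 21289 genes, with the log2 of its mean CPM over the 4 samples on the x axis and its log2 fold change (shScrambled minus Parental) on the y axis; red and blue mark the 3195 higher and 3331 lower genes. SYK, COX7C and KRT5 are named well-expressed genes below the cloud, and ITGB8 and ARHGAP29 lie above it.

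The smallest p-value belonged to SYK, which was lower in shScrambled, a tyrosine kinase best known from immune receptors and also present in many epithelial cells. SYK (ENSG00000165025, chromosome 9) was at 221 and 215 CPM in Parental and at 37.0 and 36.5 CPM in shScrambled, a 5.85-fold lower level (log2 fold change -2.55 ± 0.079, adjusted p = 5.53e-17, edgeR). The means of the other lines were 76.9 CPM (shAjuba1), 118 CPM (shAjuba2), 253 CPM (Control) and 801 CPM (Ajuba OE), so that both shScrambled samples were below all 14 other samples of the series.

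COX7C, a small subunit of cytochrome c oxidase, and ARPC3, a subunit of the ARP2/3 complex that nucleates branched actin, were lower too. COX7C was at 117 and 128 CPM in Parental against 30.3 and 24.7 CPM in shScrambled (4.42-fold lower, adjusted p = 5.1e-14, edgeR). ARPC3 was at 109 and 121 CPM against 38.3 and 34.0 CPM (3.14-fold lower, adjusted p = 1.21e-12, edgeR). Both genes were lowest of all 16 samples in the shScrambled pair, and both also differed within other lines. In shAjuba2 the COX7C values were 81.1, 36.5 and 85.3 CPM, and in Control 103, 48.8 and 96.4 CPM. In Ajuba OE they were 145, 69.7 and 102.5 CPM, with the low value in replicate 2 of each of these lines. Those replicate 2 libraries also had the lowest shares of ribosomal protein reads (1.38%, 1.81% and 2.285% of counts, against 3.08% and 3.43% in the shScrambled libraries). The part of library composition in these differences was not tested. CRABP2, which carries retinoic acid to its nuclear receptor, was at 170 and 175 CPM against 64.3 and 59.0 CPM (2.77-fold lower). It too was lowest in replicate 2 within shAjuba2, Control and Ajuba OE (31.4, 89.6 and 158 CPM).

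MUCL1, a small secreted mucin-like protein, was at 22.5 and 20.3 CPM in Parental and 4.55 and 4.46 CPM in shScrambled (4.69-fold lower). Lower too, from levels of a few CPM, were KANK4, of a family that links integrins to microtubules (4.73 and 5.38 against 0.949 and 0.927 CPM), PRR9, a proline-rich protein encoded in the epidermal cluster of chromosome 1 (3.66 and 3.28 against 0.596 and 0.434 CPM), and OTOP1, a proton channel (2.66 and 2.30 against 0.352 and 0.454 CPM). GPX5, a secreted glutathione peroxidase relative, and C4BPB, the beta chain of a complement inhibitor, fell 6.01-fold and 5.73-fold. Each of these genes was called in the 16-sample fit as well.

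In the other direction, CSMD2, a large membrane protein with CUB and sushi domains, had the largest fold change among genes at a mean of 1 CPM or more. It was nearly silent in Parental (0.551 and 0.434 CPM) and reached 6.86 and 7.81 CPM in shScrambled, 15.3-fold higher (log2 fold change 3.93 ± 0.21, adjusted p = 1.36e-12, edgeR). Its mean was 4.75 CPM in shAjuba1 and 0.254 to 0.784 CPM in the other 3 lines. GLIS3, a Krüppel-like zinc finger factor, rose 7.02-fold, from 0.777 and 0.622 CPM to 4.96 and 4.66 CPM. No sample of another line exceeded 1.12 CPM for GLIS3. ABLIM3, an actin-binding LIM protein, SCUBE1, a secreted EGF-domain protein, and DCHS2, a protocadherin of the Dachsous type, rose 7.06-fold, 7-fold and 6.7-fold.

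Among genes with higher levels, ITGB8 and ARHGAP29 stood out. ITGB8 (ENSG00000105855, chromosome 7), the integrin beta chain that pairs with alpha V and binds latent TGF-beta, was at 14.3 and 15.5 CPM in Parental and at 50.7 and 60.6 CPM in shScrambled (3.79-fold higher, adjusted p = 8.72e-13, edgeR). ARHGAP29, a GTPase-activating protein, was at 70.5 and 70.8 CPM against 190 and 196 CPM (2.77-fold higher, adjusted p = 1.21e-12, edgeR). For both genes the shScrambled samples were above every other sample of the series. MLPH (melanophilin, an adaptor of vesicle transport) and CORO6 (an actin-binding coronin) were 3.98-fold and 3.96-fold higher and AMIGO2, a neuronal-type adhesion protein, 3.72-fold higher, again with shScrambled above the 14 others.

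**Figure D2:**
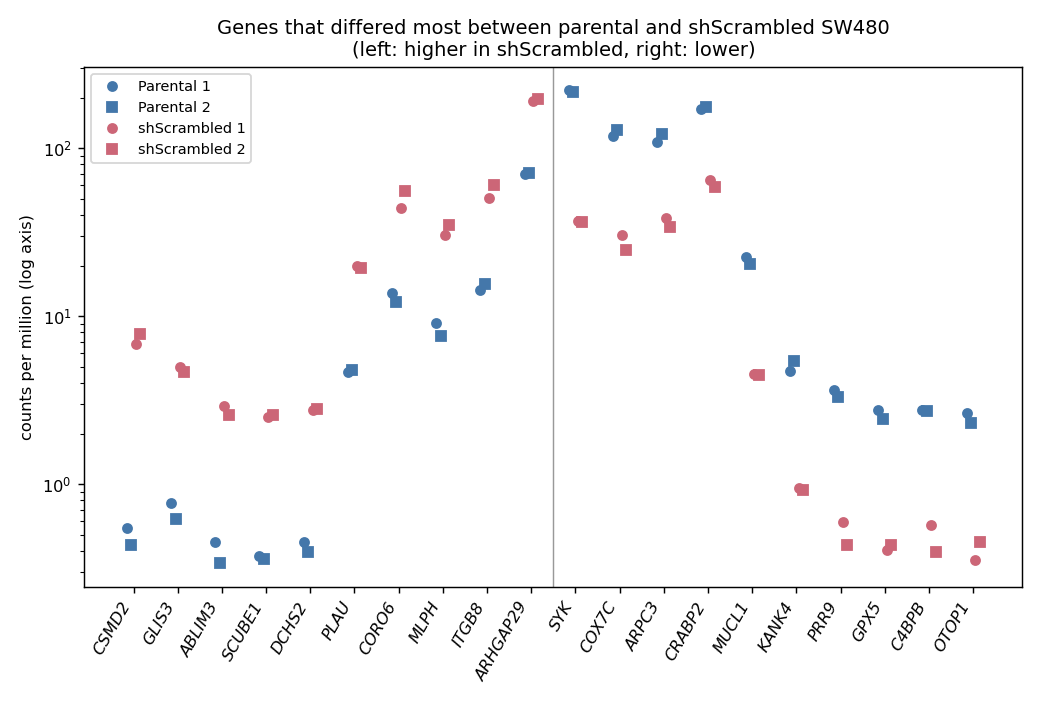
CPM on a log axis for 10 genes higher and 10 genes lower in shScrambled, with 1 symbol per sample (circles replicate 1, squares replicate 2). The 2 samples of a line lie close together for each gene, while SYK moves from above 200 CPM to below 40 CPM.

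A family of neighbouring genes fell together. The pregnancy-specific glycoproteins (PSG genes) are secreted members of the carcinoembryonic antigen family, normally made by the placenta and encoded side by side on chromosome 19. The family was picked out after its values were seen. Of 10 PSG genes, 9 were tested, 8 were lower by at least 2-fold and none was higher, with a median log2 fold change of -1.36. PSG1 was at 48.4 and 54.5 CPM in Parental and 15.3 and 12.9 CPM in shScrambled (log2 fold change -1.86 ± 0.096, adjusted p = 1.21e-12, edgeR). PSG5 was at 18.0 and 19.9 against 7.67 and 7.28 CPM, and PSG11 at 15.1 and 14.6 against 4.42 and 2.86 CPM. PSG8, the exception, was at 1.13 and 1.09 against 0.867 and 0.671 CPM (adjusted p = 0.14, edgeR). PSG7, at under 1 CPM in all 4 samples, lost its call without Parental 2, without shScrambled 1 and in DESeq2. Low PSG1 levels occurred elsewhere in the series too, with a mean of 15.1 CPM in Ajuba OE, 32.3 in shAjuba1, 33.0 in Control and 50.3 in shAjuba2.

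The PSG genes are near copies of each other, which limits how far their counts can be separated. Read from the hg38 genome with GENCODE exons, 13.1% to 32.0% of the 50-base stretches in the exons of each tested PSG gene occur unchanged in another of them, 21.3% for PSG1 and 32.0% for PSG8. The likeness is visible in the first 100 bases of the second coding exon, shown 5′ to 3′ on the minus strand of chromosome 19 in hg38, where capitals mark bases that differ from PSG1. PSG11 differs at 7 of the 100 bases, PSG5 at 6 and PSG8 at 5.
PSG1, chr19:42878179-42878278: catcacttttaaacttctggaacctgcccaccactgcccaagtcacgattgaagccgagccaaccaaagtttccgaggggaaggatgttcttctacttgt
PSG11, chr19:43024957-43025056: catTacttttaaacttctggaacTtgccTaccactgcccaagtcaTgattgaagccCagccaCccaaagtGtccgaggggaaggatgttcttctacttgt
PSG5, chr19:43185048-43185147: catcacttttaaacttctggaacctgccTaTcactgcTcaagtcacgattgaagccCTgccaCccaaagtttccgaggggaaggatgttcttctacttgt
PSG8, chr19:42764182-42764281: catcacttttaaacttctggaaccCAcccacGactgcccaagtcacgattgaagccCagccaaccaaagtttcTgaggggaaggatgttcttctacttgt

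Wnt signalling is constitutively active in most colon cancers, where stabilised beta-catenin joins TCF/LEF factors and drives a set of target genes. Of 25 tested Wnt targets and pathway genes, 15 were lower, 5 higher and 5 not called, with a median log2 fold change of -0.36 against 0.03 over all genes tested, and 10 were called in the 16-sample fit. The direction of the median was the same under every alternative (-0.38 to -0.32). ASCL2, a transcription factor of intestinal stem cells, fell from 16.3 and 16.9 CPM to 6.48 and 6.77 CPM (log2 fold change -1.30 ± 0.11, adjusted p = 4.5e-09, edgeR). The receptor TNFRSF19 fell from 54.6 and 55.0 CPM to 26.5 and 27.2 CPM. SP5, a transcription factor that is itself a direct Wnt target, fell from 56.2 and 65.0 CPM to 28.6 and 31.7 CPM. Smaller decreases were measured for the feedback inhibitors APCDD1 (-0.64), RNF43 (-0.42) and AXIN2 (-0.40), the factors TCF7 (-0.68) and LEF1 (-0.38), MYC (-0.48), CCND1 (-0.42) and beta-catenin itself (CTNNB1, -0.33), all on the log2 scale. The 5 that rose were LGR5 (0.877 and 0.735 to 1.41 and 1.64 CPM), PROX1, DKK1, NKD2 and TCF7L2. LGR5, the receptor that marks intestinal stem cells, was not called in the 16-sample fit (adjusted p = 0.118, edgeR), and its call was lost without shScrambled 2.

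The SP5 promoter is shown because it holds the letters to which TCF/LEF factors bind more than once. The window reaches from 250 bases before to 50 after the start of the gene (RefSeq, GRCh38.p14, plus strand), and capitals mark CTTTGAT or CTTTGAA or their reverse complements, found 3 times.
SP5, chr2:170715087-170715386: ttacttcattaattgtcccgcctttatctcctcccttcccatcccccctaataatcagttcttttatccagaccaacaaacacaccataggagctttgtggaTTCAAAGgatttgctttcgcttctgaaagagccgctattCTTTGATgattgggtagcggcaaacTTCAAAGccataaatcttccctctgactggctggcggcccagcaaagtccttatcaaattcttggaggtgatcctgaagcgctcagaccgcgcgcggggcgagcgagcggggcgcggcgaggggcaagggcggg
Either 7-letter motif, on either strand, occurs in 6.86% of 35116 promoter windows of this length and in 2 of 24 windows of the 15 Wnt list genes that had one, those of SP5 and of DKK1, which rose.

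E-cadherin and several junction genes were lower, and a few others of the same families were higher. Among 35 tested cadherins, claudins and junction proteins, 13 were lower, 5 higher and 17 not called (9 called in the 16-sample fit, 11 without Parental 2 and 10 without shScrambled 2), with a median log2 fold change of -0.15. E-cadherin (CDH1, chromosome 16), the adhesion molecule of epithelial junctions, fell from 21.3 and 25.0 CPM to 7.78 and 8.17 CPM (2.86-fold, adjusted p = 2.56e-10, edgeR). P-cadherin (CDH3), its neighbour on the chromosome, fell 2.02-fold and CDH11 2.26-fold. The desmosomal plakophilin PKP2 (-0.61), CLDN7 (-0.63), CLDN4 (-0.45) and the tight junction protein TJP1 (-0.28) were lower as well. In contrast the protocadherin PCDH19 rose from 4.86 and 4.26 CPM to 13.1 and 11.6 CPM, and CDH13 (0.78) and CLDN1 (0.75) were higher on the log2 scale. Across the 6 lines CDH1 was lower still in shAjuba2 (mean 5.01 CPM) and highest in Ajuba OE (34.5 CPM).

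Keratins, the intermediate filaments of epithelia, split: 6 of 17 tested were lower, 5 higher and 6 not called, and 6 were called in the 16-sample fit. KRT5, a basal-layer keratin, fell from 3214 and 3226 CPM to 1617 and 1573 CPM (1.99-fold, adjusted p = 2.04e-09, edgeR). The simple-epithelial pair KRT8 (2976 and 3198 to 1968 and 1856 CPM) and KRT18 (2485 and 2744 to 1599 and 1578 CPM) fell with it. KRT7 rose from 5.66 and 6.17 CPM to 10.98 and 10.9 CPM. KRT6B was called lower, with Parental samples that differed from each other (5.69 and 1.81 CPM against 0.786 and 0.868 CPM). KRT8 and KRT18 are 2 of the 5 genes in the summed epithelial markers given above.

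Both plasminogen activators rose. Of 24 tested proteases and inhibitors, 10 were higher, 3 lower and 11 not called, and 10 were called in the 16-sample fit. The urokinase gene PLAU, which activates plasminogen at the cell surface, rose from 4.66 and 4.75 CPM to 19.9 and 19.3 CPM (4.22-fold, adjusted p = 2.06e-12, edgeR), and the tissue-type activator PLAT from 6.79 and 6.77 to 17.4 and 16.3 CPM. SERPINE2, a secreted inhibitor of such proteases, rose with them (12.5 and 12.03 to 22.5 and 23.5 CPM), as did the metalloprotease inhibitor TIMP3 (0.79) and MMP2 (0.93), whereas TIMP2 fell (-0.77, log2 scale). PLAU overlaps the antisense gene C10orf55 over 915 exonic bases and ITGB8 overlaps ITGB8-AS1 over 132, and without a stated strand setting their reads cannot be told apart. Collagens and laminins were mostly higher or not called (10 higher, 3 lower and 16 not called of 29 tested, 5 called in the 16-sample fit and 8 without shScrambled 2). COL4A1, of basement membranes, rose from 2.96 and 2.49 CPM to 6.97 and 7.24 CPM. The membrane collagen COL13A1 (38.0 and 35.6 to 71.8 and 79.8 CPM) and the matrix protein SPARC (2.40 and 2.53 to 6.51 and 6.12 CPM) rose too. A list of 15 epithelial-mesenchymal transition factors and mesenchymal genes gave 4 higher, 2 lower and 9 not called, and only SPARC of them was called in the 16-sample fit.

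**Figure D3:**
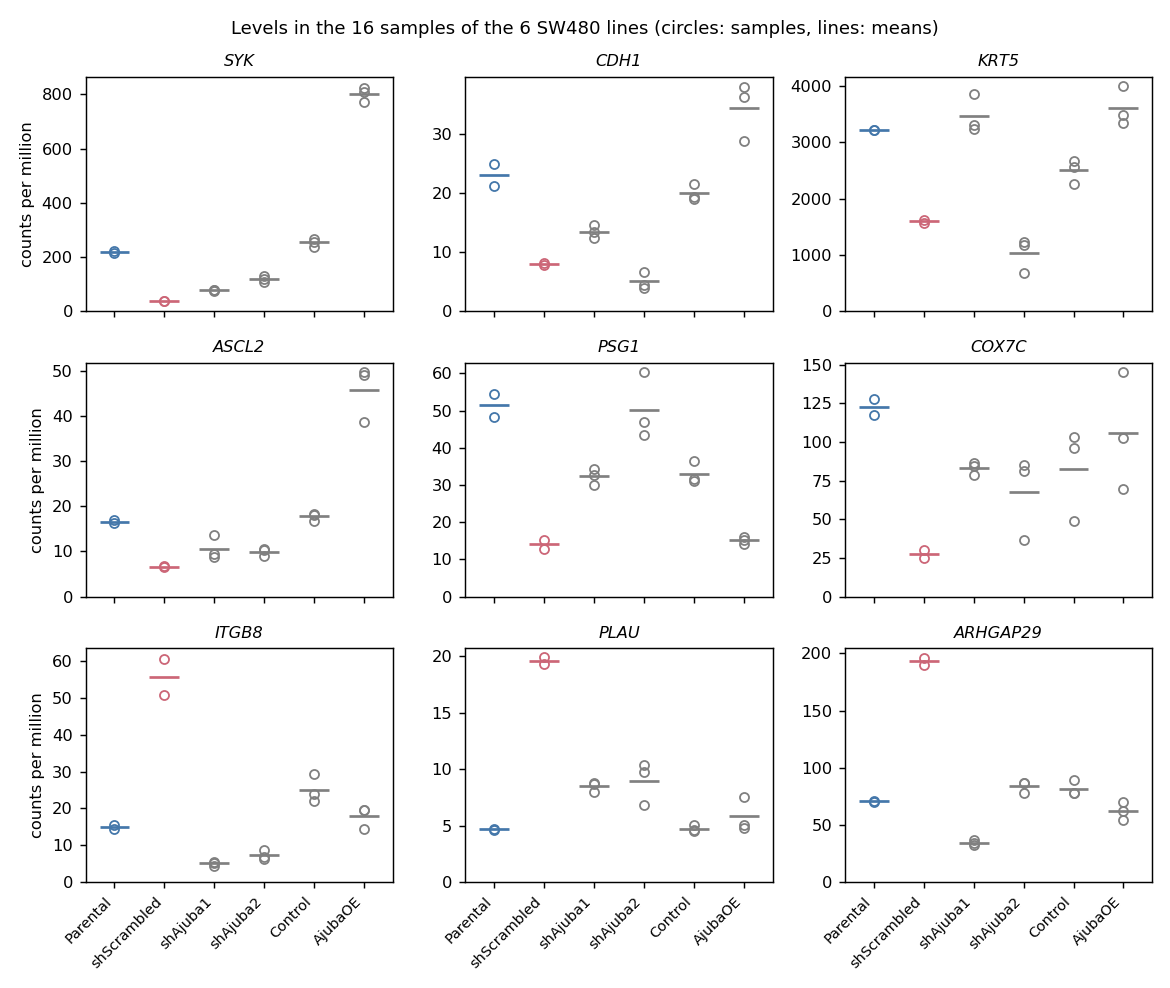
CPM of 9 genes in the 16 samples of the 6 lines, with a circle for each sample and a bar for the line mean (Parental blue, shScrambled red, other lines grey). SYK and ITGB8 in shScrambled lie outside all other samples, while CDH1 and KRT5 in shScrambled lie above shAjuba2.

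Several EGF receptor ligands and AP-1 subunits rose. Of 12 tested EGF receptor family members and ligands, 5 were higher and 4 lower, with 3 called in the 16-sample fit and 5 without Parental 1. The ligands AREG (2.13 and 1.79 to 4.37 and 4.08 CPM) and BTC (0.802 and 0.943 to 1.95 and 1.99 CPM) rose 2.19-fold and 2.27-fold, whereas NRG1 was lower (2.30 and 1.62 to 1.36 and 0.947 CPM). Of 21 tested AP-1 and immediate-early genes, 9 were higher and none lower, with 4 called in the 16-sample fit, among them the AP-1 subunits FOSL1 (0.61) and JUN (0.56) and the nuclear receptor NR4A2 (0.99). Targets of YAP and TAZ, the coactivators of the Hippo pathway, were 9 higher, 4 lower and 11 not called of 24 tested, with 7 in the 16-sample fit. NT5E, an ectonucleotidase, rose from 24.6 and 27.6 CPM to 59.4 and 52.2 CPM, and the receptor kinase AXL from 157 and 163 to 247 and 238 CPM, while AMOTL1, an angiomotin that restrains YAP, fell from 56.2 and 47.3 to 23.3 and 20.5 CPM. Genes of TGF-beta and BMP signalling went both ways (10 higher, 8 lower of 31, with 10 called in the 16-sample fit). PMEPA1 rose 1.82-fold, and the decoy receptor BAMBI and the inhibitor ID2 fell 1.99-fold and 1.95-fold. The Notch ligand JAG1 fell from 36.8 and 33.1 CPM to 15.05 and 15.9 CPM.

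ATF4 is translated when amino acids run short or the endoplasmic reticulum is under load, and it drives amino acid synthesis and import. Of 33 tested genes of this and the unfolded protein response, 18 were lower, 2 higher and 13 not called, with a median log2 fold change of -0.35, and 13 were called in the 16-sample fit. Asparagine synthetase (ASNS) fell from 115 and 126 CPM to 58.4 and 51.4 CPM (2.17-fold, adjusted p = 4.02e-10, edgeR). MTHFD2, of mitochondrial folate metabolism, fell 1.96-fold, and the serine synthesis enzymes PSAT1 (-0.84) and PHGDH (-0.82) and the amino acid transporter pair SLC7A5 (-0.67) and SLC3A2 (-0.58) were lower on the log2 scale. ASNS and MTHFD2 also differed within other lines. Both were lowest in replicate 2 of shAjuba2, Control and Ajuba OE (ASNS 53.7, 72.3 and 117 CPM, MTHFD2 57.9, 70.3 and 101 CPM). CHAC1 of the same list, 2.06-fold lower in shScrambled, was not lowest in replicate 2 of Ajuba OE. The part of library composition in these decreases was not tested. VLDLR fell from 36.3 and 37.7 to 15.4 and 13.7 CPM. STC2, a secreted stress protein, and DNAJB9 were the 2 that rose.

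Genes that sense nucleic acids or answer interferon bear on the use of a viral vector. Of 39 tested interferon response genes, 12 were higher, 4 lower and 23 not called, with a median log2 fold change of 0.21, and 6 were called in the 16-sample fit. The 3 largest increases were at low counts, GBP1 (0.2 and 0.226 to 0.678 and 0.355 CPM), DDX60 (0.501 and 0.396 to 0.868 and 1.05 CPM) and IFIT2 (0.576 and 0.641 to 1.33 and 1.40 CPM). Also higher were OAS1 (2.71 and 3.26 to 5.10 and 5.09 CPM), MX2 (6.59 and 6.20 to 10.7 and 9.35 CPM) and PARP14 (81.5 and 86.0 to 110 and 111 CPM). The 4 lower ones were IFI27 (8.17 and 8.96 to 3.28 and 3.08 CPM) and the virus-restricting IFITM1, IFITM2 and IFITM3, of which IFITM2 fell from 207 and 223 to 127 and 119 CPM. IFI44 and IFI44L were at 0 in all 4 samples. Of 16 tested nucleic acid sensors, 3 were higher, STING1 and IRF3 among them, and 13 were not called, a share of 18.8% against 30.7% of all genes tested. In the 16-sample fit 2 were called and IRF3 was not (adjusted p = 0.294, edgeR), and without shScrambled 2 only 1 was called. In the microRNA machinery, which also handles shRNA, 4 of 17 tested genes were higher (AGO3, AGO4 and TNRC6B among them, by 0.29 to 0.35 on the log2 scale), RAN was lower and 12 were not called. The 29.4% called is near the share of all genes, none was called in the 16-sample fit, and 1 was called without Parental 2 and 1 without shScrambled 1.

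Several broad sets of strongly expressed housekeeping genes were lower, by little. Of 79 tested cytosolic ribosomal protein genes, 55 were lower, none higher and 24 not called, with a median log2 fold change of -0.29. No ribosomal protein gene was called in the 16-sample fit, and 16 were called without Parental 2 and 13 without shScrambled 2. RPS14 was at 537 and 662 CPM in Parental against 411 and 366 CPM in shScrambled, a gap between lines not much wider than that between the Parental samples. All 13 messengers of the mitochondrial genome were higher (median 0.59), and 1 of them was called in the 16-sample fit. Their summed share of counts was 7.38% and 6.33% in Parental and 9.76% and 11.5% in shScrambled, and 6.95% to 12.7% in the other 12 samples. Replicate 2 of shAjuba2, Control and Ajuba OE had 12.65%, 11.45% and 11.32%, against 6.95% to 8.76% in the other samples of these lines. The same replicate 2 libraries had the lowest ribosomal protein shares. In shAjuba1 the mitochondrial share was 9.77% to 10.8%. The part of library composition in the mitochondrial and ribosomal changes was not tested. Among 42 nuclear genes of the respiratory chain, 17 were lower and NDUFV2 higher, and COX7C alone was called in the 16-sample fit, with 9 called without Parental 2 and 6 without shScrambled 2. Heat shock genes (8 lower of 13), mitosis and replication genes (17 lower of 39) and glycolysis genes (8 lower, 2 higher of 19) leaned the same way. Of these 3 lists none, 1 (MCM3) and 1 (HK2) were called in the 16-sample fit, and 2, 6 and 6 without Parental 2. Actin and contractility genes were 15 lower and 3 higher of 33 (9 called without Parental 2), with 6 in the 16-sample fit, among them ezrin (EZR, -0.52), which ties actin to the cell membrane.

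These small decreases went with expression level and with transcript length across all genes. Among nuclear protein-coding genes, the 13 mitochondrial messengers left out, the share called lower was 6.46% at a mean log2 CPM under 0, 23.7% at 4 to 6 and 48.8% above 8. The share called higher was 12.1% under 0, 21% at 0 to 2, 20.2% at 2 to 4, 13.9% at 4 to 6, 10.6% at 6 to 8 and 7.77% above 8. Among those with log2 CPM of at least 4, divided by summed exon length into 4 equal groups, 40.6% of the shortest group were lower and 7.06% higher, against 19% and 16.9% of the longest. Long non-coding RNA genes were called higher more often than lower (14.8% and 5.43% of 4070), and protein-coding genes the reverse (14.9% and 20.7% of 14482). The part of level and length in the decrease of the ribosomal protein, respiratory chain and heat shock genes was not tested.

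**Figure D4:**
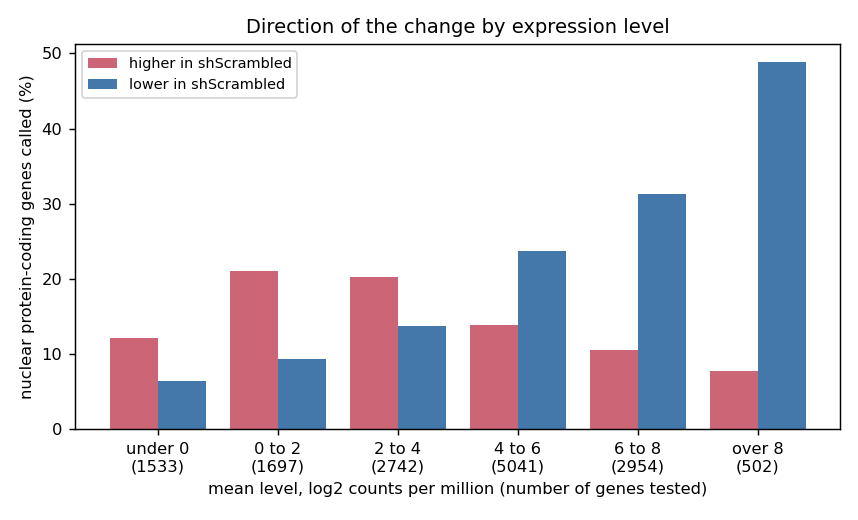
Bars give the percentage of nuclear protein-coding genes called higher (red) or lower (blue) in shScrambled, in 6 bins of mean log2 CPM, with the number of genes in brackets. The blue bars climb from 6.46% in the lowest bin to 48.8% in the highest.

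Further groups changed in part. Of 30 tested ion channels and pumps, 15 were higher and none lower (median 0.26), led by the calcium channel CACNA1D (2.96 and 3.04 to 8.78 and 7.44 CPM), and 6 were called in the 16-sample fit. Among 34 HOX genes, 13 were higher and 6 lower, but 5 were called in the 16-sample fit and 8 without shScrambled 2. HOXA13, which marks the hindgut, rose from 4.61 and 5.05 to 9.14 and 8.78 CPM. Of 33 semaphorins, plexins and other guidance genes 12 were higher and 7 lower, with 5 called in the 16-sample fit, 12 without Parental 2 and 9 without shScrambled 2, SLIT2 falling from 1.13 and 1.30 to 0.136 and 0.217 CPM and SEMA7A rising from 5.66 and 5.15 to 11.9 and 12.9 CPM. Of 21 intestinal differentiation genes, 6 were higher, 4 lower and 11 not called, with 3 in the 16-sample fit and 5 called without Parental 2. The intestinal factor CDX2 fell from 16.9 and 19.4 to 10.1 and 9.49 CPM, and the goblet cell peptide TFF3 rose on few counts, from 0.0501 and 0.0754 to 0.407 and 0.296 CPM. Of 16 stem cell markers, 4 were higher, 3 lower and 9 not called (median 0.02), with 4 in the 16-sample fit. The pluripotency factor SOX2 rose from 1.18 and 0.981 to 3.61 and 3.08 CPM. Of 16 aldehyde dehydrogenases, 1 was higher, 3 lower and 12 not called, with 1 in the 16-sample fit and 1 called without Parental 2. The higher one, ALDH1A3, went from 269 and 280 to 490 and 496 CPM, and its reads cannot be told apart from those of ALDH1A3-AS1 over 1715 shared exonic bases. p53 targets (1 higher, 3 lower of 24), MHC class I genes (2 and 2 of 19), NF-kB and chemokine genes (1 and 2 of 19) and cholesterol synthesis genes (2 and 5 of 26) were mostly not called, and the 16-sample fit called 1, 1, 1 and 0 of them.

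**Figure D5:**
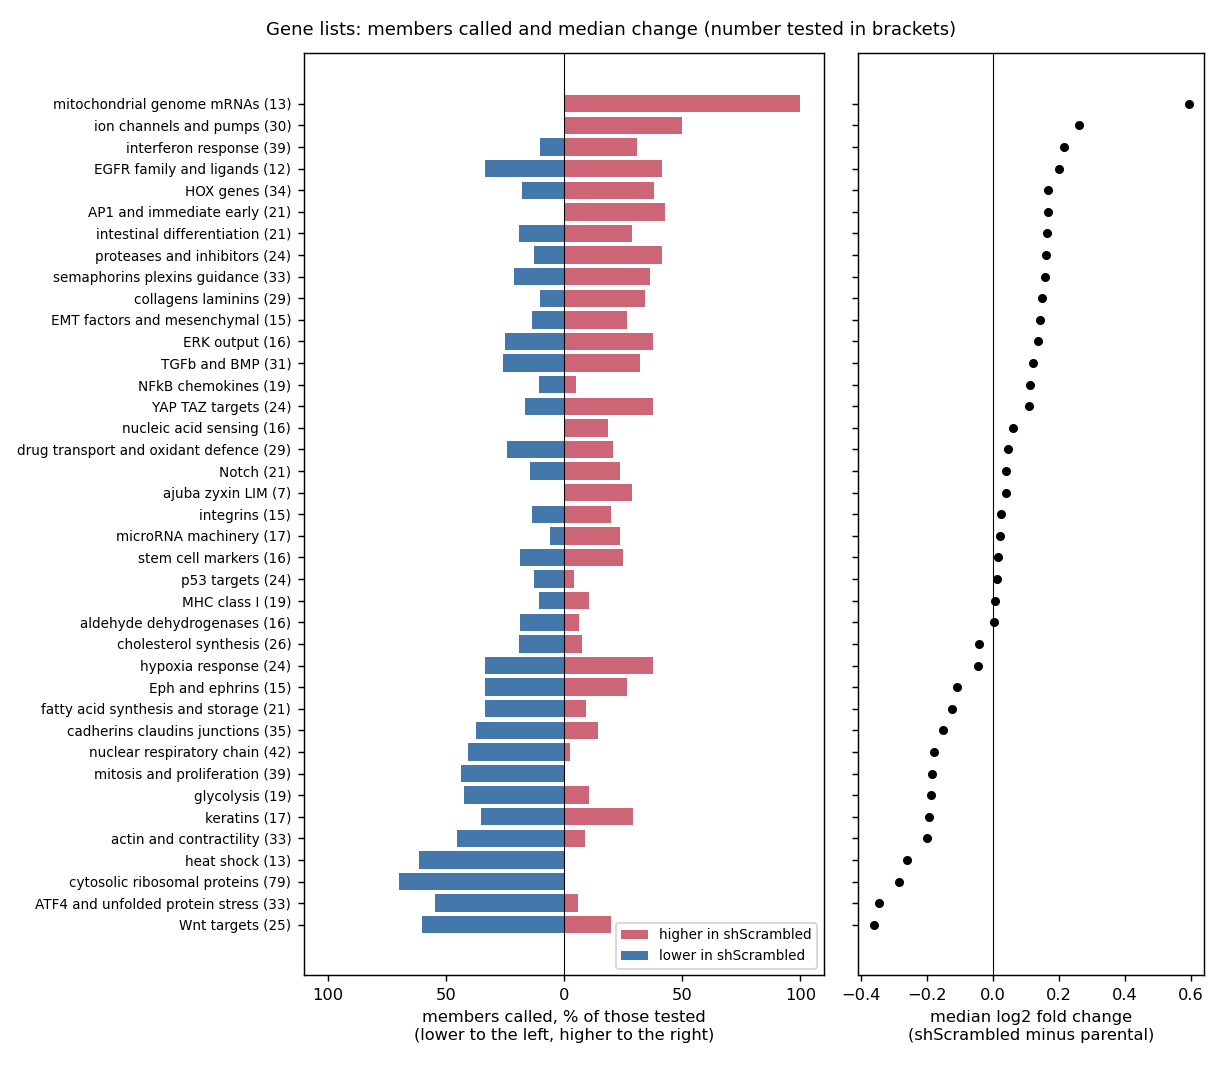
For each of 39 gene lists, the left bars give the percentage of tested members called lower (blue) and higher (red) in shScrambled, and the right points the median log2 fold change. Wnt targets and ATF4 genes lie at the bottom, near -0.36 and -0.35, and mitochondrial messengers at the top, at 0.59.

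The other 4 lines show where the pair lies within the series. For 4612 of the 6526 DEG (70.7%) neither line stood apart from the rest. For 1330 of the 6526 DEG (20.4%), only the shScrambled pair lay beyond all 14 other samples of the series, and for 547 (8.38%) only the Parental pair did. For 37 DEG, MUCL1 among them, each of the 2 pairs did. Over all 21289 genes tested the shares for shScrambled alone and Parental alone were 8.79% and 4.67%. With a margin of at least 0.5 on the log2 scale the numbers were 198 for shScrambled (3.03% of DEG), 160 of them higher, and 15 for Parental (0.23%). Over all 21289 genes tested they were 200 (0.939%) and 18 (0.0846%). The 14 other samples include those of the other line of the comparison. A gene apart from them is thus likely to be a DEG by definition, and the shares of DEG are no separate result. SYK, ITGB8, GLIS3, DCHS2, AMIGO2, MLPH and ARHGAP29 belong to the 198. By contrast OTOP1 and C4BPB were above every other line in Parental, by 0.35 and 0.38 on the log2 scale. MUCL1 was highest in Parental (by 0.16) and lowest in shScrambled (by 0.30). CDH1, KRT5 and CRABP2 lay within the range of the other lines in all 4 samples. The 14 other samples share the cell line and its culture, and for each line the comparison rests on 2 samples.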

How the data were processed

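RNA-seq counts of 4 samples (Parental 1 and 2, shScrambled 1 and 2) were compared, and the other 12 samples of the series entered only levels by line and the 16-sample fit. Per gene, the values deposited by the authors are raw read-pair counts. They prepared stranded polyadenylated libraries for 50-base paired-end sequencing, aligned reads to hg38 with HISAT2 and counted exons with featureCounts. Versions, annotation release and strand setting were not given in the sources used here. Besides the cases given above, exons of further named genes overlap those of another gene. Examples are ASNS (2415 bases, same strand), CACNA1D (1399, opposite strand), MTHFD2 (1324, opposite) and VLDLR (1100, opposite). How reads in such stretches were counted is not known. All 16 columns were mapped by name, and 56434 of 66023 gene identifiers were found in GENCODE 44. Total counts per compared sample ranged from 36456400 to 53584129, and low counts limit the precision of genes under 1 CPM.

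Genes were filtered with filterByExpr, scaled with TMM and tested two-sided with edgeR 4.0.16 (quasi-likelihood; R 4.3.3, limma 3.58.1) at a Benjamini-Hochberg adjusted p of 0.05. The SE is the absolute log2 fold change over the square root of F. CPM used TMM factors of all 16 samples. An exact permutation test of 2 against 2 samples cannot go below p = 0.333 and was not used. The gene lists were written by hand. The members, the lists and the comparison were chosen with earlier results of these data known, so no adjustment over a list alone is given. Genes named are AJUBA and its 2 relatives, the 12 protein-coding DEG of largest fold change in each direction at a mean CPM of at least 1, the 6 of smallest p and 4 non-coding genes in each direction, and up to 4 DEG of largest change from each list, or 2 members where a list had none. Not all are printed, and some genes are not reported here. Further members of a list, such as AXIN2, IFITM2 and KRT8, and the PSG family were named after their values were seen.

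DESeq2 1.42.0, other scalings and filters, thinning, a replicate block, the 16-sample fit and leaving out each sample were alternatives. Plots used matplotlib 3.10.9 (Python 3.11.15; pandas 2.3.3).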

Additional observations from a re-analysis of the deposited data

How the results depend on the processing

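With 2 samples a line, the count of DEG varied with the fit. Of 6526 DEG (3195 higher, 3331 lower), 1075 had at least a 2-fold change (704 higher, 371 lower). The 16-sample fit called 1696 (754 higher, 942 lower; 630 at 2-fold or more), and DESeq2 called 4595 (1862 higher; 547 at 2-fold or more). Requiring 10 counts in every sample left 692 genes with a 2-fold change. Leaving out 1 sample gave 3010 to 5369 DEG (1385 to 2724 higher, 1625 to 2866 lower) and 626 to 1125 with a 2-fold change. Library size alone, DESeq2's size factors in edgeR, every gene with at least 1 count and thinning gave 5849 to 6602. Deviations of same-numbered samples from their line means correlated at -0.08 over 21289 genes, so no shared deviation was seen. This correlation cannot show whether same-numbered samples were handled together. The fit with the replicate number as a block called 5411. DEG beyond all other lines by 0.5 numbered 15 for Parental and 198 for shScrambled, against 18 and 200 among all genes tested. Of 189 named DEG, 120 were also called in the 16-sample fit. Under each of these alternatives in which they were tested, 112 stayed called, and none of the 189 changed sign. The list medians of 28 of 39 lists kept their sign. Leaving out 1 sample moved the medians of EMT genes (-0.035 to 0.291), hypoxia genes (-0.186 to 0.001), nucleic acid sensors (-0.015 to 0.061) and TGF-beta genes (0.10 to 0.20). The cause of these moves was not tested.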

Other observations

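Some of the best-expressed genes with at least a 2-fold change belong to no list above and were picked out after their values were seen. ZAP70, the other kinase of the SYK family and known from T cells, fell alongside it, from 259 and 230 CPM in Parental to 95.0 and 115 CPM in shScrambled (log2 fold change -1.20 ± 0.090, adjusted p = 4.39e-10, edgeR). The unconventional myosin MYO1D fell from 434 and 454 to 174 and 169 CPM. MPZL2, an epithelial adhesion protein, fell from 241 and 222 to 74.0 and 83.4 CPM. The secreted factor FGF19, an intestinal signal to the liver, fell from 87.8 and 96.5 to 32.3 and 34.9 CPM. The ectodysplasin receptor EDAR fell from 118 and 122 to 51.8 and 51.8 CPM.

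Higher in shScrambled were the scaffold protein AKAP12 (590 and 535 to 1211 and 1224 CPM), the taurine transporter SLC6A6 (191 and 212 to 475 and 474 CPM) and the transporter SLC16A6 (50.9 and 51.2 to 112 and 111 CPM). A lncRNA gene of chromosome 21 known only by its identifier, ENSG00000281181, was called lower with 1 Parental sample far above the other. It stood at 1433 CPM in Parental 1 and at 57.9 CPM in Parental 2, against 68.7 and 151 CPM in shScrambled, and it is 1 of 29 DEG whose samples overlap between the lines.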
